A study of Mus musculus with 3 samples.

Results

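Malat1, Neat1 and 8 transcripts of the mitochondrial genome (mt-Nd1, mt-Nd2, mt-Nd4, mt-Co1, mt-Co2, mt-Co3, mt-Atp6 and mt-Cytb) were followed through the immune cells of the healthy mouse kidney. These 10 genes were taken by name from the 32886 gene columns of the count table, and each was expressed as its share of all molecules (UMIs) counted in a group of cells. CD45+ cells were sorted from the cortex and from the outer (OM) and inner (IM) medulla, dissected from kidneys of wild-type, untreated C57BL/6J mice, males aged 10 weeks, and were sequenced in droplets in Aachen, Bonn and Hamburg. The cells of 1 compartment in 1 of these datasets form a library, so that 20266 cells fall into 9 libraries with the 3 datasets as replicates (7147 cells from Aachen, 6158 from Bonn and 6961 from Hamburg). How many mice entered a library is not given in the sources used here. The p-values measure how compartment differences vary over the libraries once each dataset's own level is removed. The Aachen libraries were made with an earlier version of the 10x chemistry than the others.

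The authors' 23 clusters, called Idents, include a pair named for a member, Malat+_Macrophage and Malat+_T_cell, which were kept apart from the other Idents throughout. Since the Idents were clustered on these same cells and genes, levels per Ident are descriptions without a test. The Aachen cells were shallow, with a median of 887 UMIs, against 3291 in Bonn and 2944 in Hamburg. A barcode sequence shared with another cell of the dataset occurred in 36 Aachen cells, 26 Bonn cells and 0 Hamburg cells. Sequences found in more than 1 compartment numbered 16 in Aachen, 13 in Bonn and 0 in Hamburg. The cells carried 6 barcode suffixes in Aachen, 3 in Bonn and 1 in Hamburg. With 1 suffix, no sequence can recur under unique cell names, so the Hamburg counts of 0 cannot be compared with the others.

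Malat1 is a long noncoding RNA that stays in the nucleus, where it gathers at speckles that store splicing factors. Neat1 is the scaffold of a neighbouring nuclear body, the paraspeckle, and is known to be induced by inflammatory and stress signals in myeloid cells. The mitochondrial transcripts are cut from long precursors made inside the organelle and encode subunits of the respiratory chain. mt-Nd1, mt-Nd2 and mt-Nd4 encode parts of complex I, mt-Cytb of complex III, mt-Co1, mt-Co2 and mt-Co3 of complex IV, and mt-Atp6 of ATP synthase. In single-cell data the share of both kinds of RNA is widely read as a sign of cell quality.

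Droplet libraries capture RNA by its stretches of A, so the places where the members hold or lack such stretches are shown first. On GRCm38, with the GENCODE M21 annotation, Malat1 (ENSMUSG00000092341) lies at chr19:5795690-5802672 and Neat1 (ENSMUSG00000092274) at chr19:5824708-5845478, both on the minus strand and both annotated as lincRNA. Malat1 held the longest run of A among the members, 12 bases within its 6983-base transcript, and mt-Nd2 was the only other member with a run of at least 8. Both runs are printed with their neighbours, the run in capitals, from bases 6664 to 6695 of Malat1 and from bases 129 to 156 of mt-Nd2.
Malat1: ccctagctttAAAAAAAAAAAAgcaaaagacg
mt-Nd2: actaatcaacAAAAAAAAcccacgatca

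The annotated mitochondrial messages end at or inside their stop codon and hold no tail of their own. The last 30 bases are shown for the 4 transcripts whose place among the mitochondrial members differed most between datasets, with the letters of the stop codon in capitals. These are mt-Co2 at chrM:7013-7696, mt-Nd2 at chrM:3914-4951, mt-Co3 at chrM:8607-9390 and mt-Nd1 at chrM:2751-3707, all on the plus strand.
mt-Co2: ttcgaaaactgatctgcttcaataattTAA
mt-Nd2: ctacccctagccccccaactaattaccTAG
mt-Co3: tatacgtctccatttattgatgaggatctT
mt-Nd1: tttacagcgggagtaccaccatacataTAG

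mt-Co3 ends on the first letter of its stop codon, so that the codon becomes complete only with the added A tail. The same holds for mt-Nd4 and mt-Cytb, whose annotated ends lie 1 base past a full codon.

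Malat1 took a far larger part of the Aachen libraries than of the others. Its share was 6.57% in cortex, 9.62% in OM and 6.99% in IM of Aachen. In Bonn the share was 0.786, 0.970 and 0.847%, and in Hamburg it was 1.05, 1.07 and 0.995% in the same order. The 3 Aachen libraries lay above all 6 others without overlap, and the Malat1 share of the Aachen cells together was 9.68 times that of Bonn and 7.67 times that of Hamburg. The 2 barcode suffixes within each Aachen compartment gave Malat1 shares of 6.81 and 6.18% in cortex, 9.71 and 9.44% in OM, and 6.79 and 7.30% in IM. The kind of count differed too, since 0.118% of the nonzero Hamburg values were whole, against 100% in Aachen and Bonn. Facility, chemistry, depth and kind of count cannot be told apart in any difference between datasets, since each dataset has 1 of each.

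Neat1 shares were 0.0491, 0.0473 and 0.0364% in cortex, OM and IM of Aachen. They were 0.0134, 0.0188 and 0.0240% in Bonn, with 0.0212, 0.0272 and 0.0212% for Hamburg. Neat1 was again highest in all 3 Aachen libraries, by 2.54 times against Bonn and 1.91 times against Hamburg. No Neat1 UMI was counted in 5033 of the 7147 Aachen cells, 3772 of the Bonn cells and 4191 of the Hamburg cells, whereas only 29, 31 and 56 cells lacked a Malat1 UMI.

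The 8 mitochondrial members followed another order of datasets. Together they took 1.86, 1.30 and 1.64% of the UMIs in cortex, OM and IM of Aachen and 1.78, 1.91 and 1.93% in Bonn. In Hamburg they took 0.937, 1.01 and 1.02%. Hamburg was lowest in all 3 compartments, and the Aachen and Bonn libraries overlapped. The members held 98.5% of all mitochondrially encoded UMIs in Aachen, 85.3% in Bonn and 89.2% in Hamburg. Counting error alone was small, with 95% Wilson intervals of at most ±0.0333 percentage points for Malat1 and ±0.0182 for the 8 members in any library.

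The table holds few cells of high mitochondrial share. The share of all mitochondrial UMIs in a cell reached 4.994% in Aachen, 4.998% in Bonn and 9.12% in Hamburg, with 8 Hamburg cells and no other cell above 5%. The authors' methods state a limit of 20%. Median shares per cell were 1.44, 2.18 and 1.09%. Levels described here are therefore those of cells kept below these values.

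Across Idents, Malat1 ranged 4.71-fold, from proliferating cells to the Malat+ Idents. Levels were made comparable across datasets by dividing the share in an Ident by the share over all cells of that dataset, and 20 Idents with at least 20 cells in every dataset were ordered by the mean of this relative level. Malat+_Macrophage held 12.7% Malat1 in Aachen, 1.64% in Bonn and 4.05% in Hamburg, a relative level of 2.49 ± 1.23 (SD, n = 3 datasets). Malat+_T_cell held 10.9, 1.89 and 3.62%, a relative level of 2.38 ± 1.06. The Malat+ Idents thus carried more Malat1 than any of the other 18 in each dataset, as their names say, but their excess ranged between datasets from 1.36 times the dataset's share in Aachen to 3.88 times in Hamburg.

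Below them, by mean relative level, stood 3 of the 4 Idents of resident macrophages, tissue cells marked by complement C1q. Macrophage_3 had a relative Malat1 level of 1.31 ± 0.0451, with 10.4, 1.12 and 1.32% in Aachen, Bonn and Hamburg. Macrophage_1 followed with 1.25 ± 0.0487 and Macrophage_2 with 1.18 ± 0.0885. Isg+_Macrophage, the interferon-responding Ident of the same class, stood lower at 1.002 ± 0.419, below neutrophils and NK_cell_2. Single datasets gave other orders among the 20 Idents. Next below the Malat+ Idents came Macrophage_3 in Aachen, but Isg+_Macrophage in Bonn (1.14%) and neutrophils in Hamburg (1.595%, against 1.33% in Macrophage_1). At the foot of the order were T_cell_3 at 0.655, type 1 and type 2 dendritic cells (cDC1 and cDC2) at 0.619 and 0.611, and Prolif._cell at 0.527 ± 0.209. Of 19 pairs of neighbours in this order, only Malat+_T_cell with Macrophage_3 and Macrophage_3 with Macrophage_1 lay farther apart than the larger of their SDs.

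**Figure D1:**
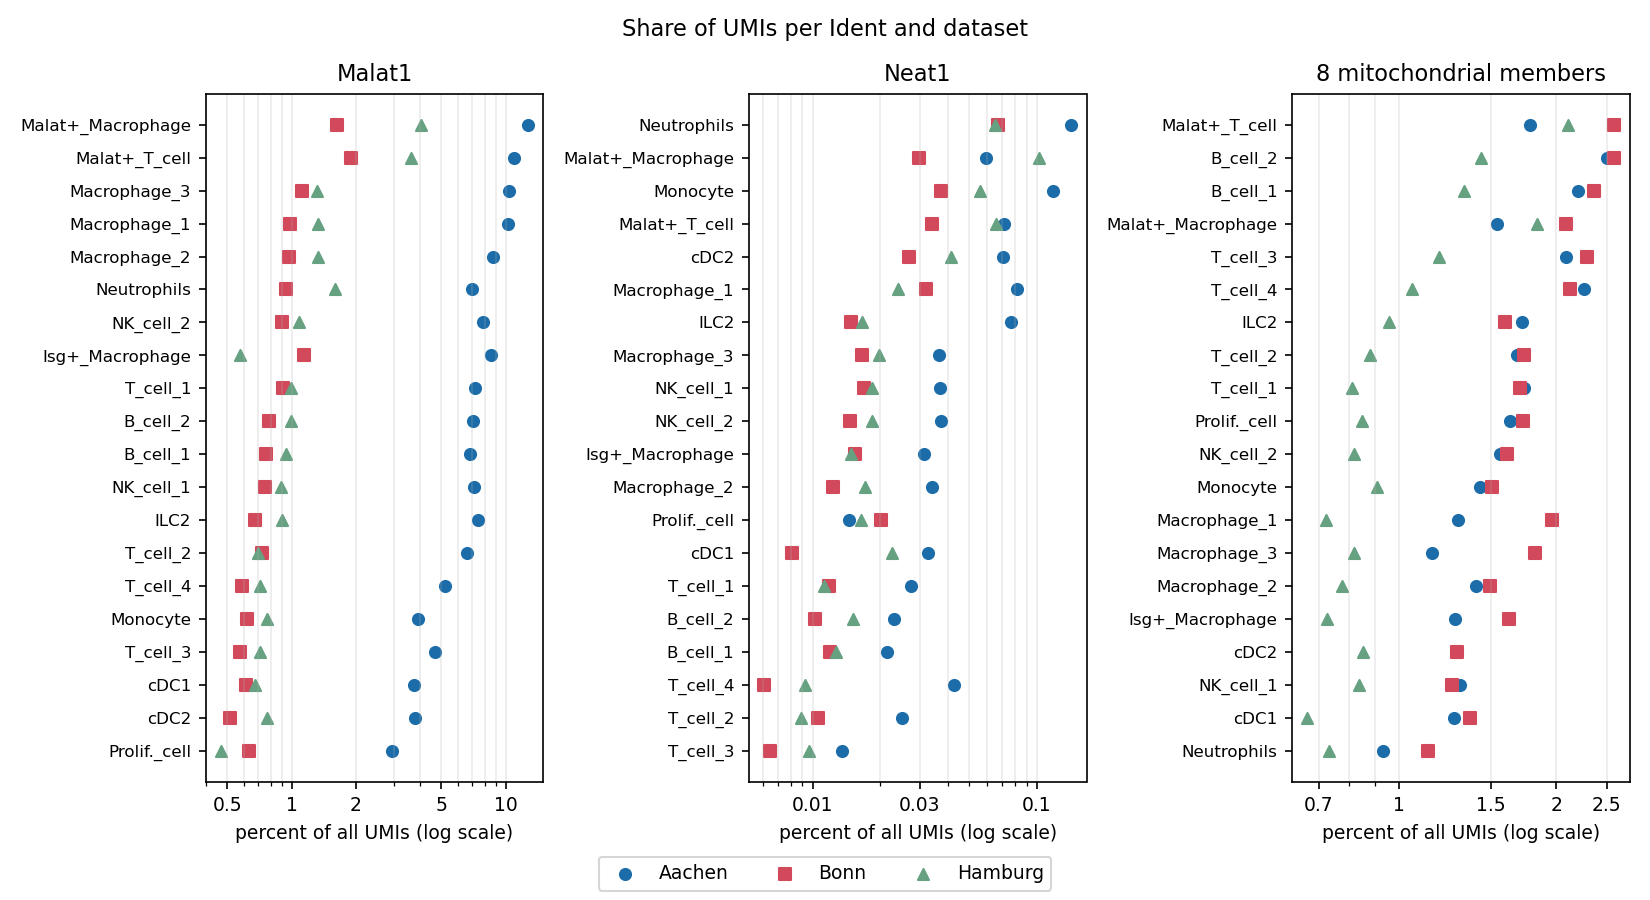
Share of all UMIs (percent, log scale) taken by Malat1, by Neat1 and by the 8 mitochondrial members in 20 Idents, with 1 point per dataset and the Idents ordered by mean relative level. Malat1 is higher in Aachen than in Bonn or Hamburg in every Ident (for example 2.94 against 0.631 and 0.468% in Prolif._cell), and by mean relative level Neat1 peaks in neutrophils and the mitochondrial members are lowest there, whereas in Hamburg these places go to Malat+_Macrophage and cDC1.

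Neat1 spanned 9.03-fold and was highest in myeloid cells outside the resident macrophages. Neutrophils, the first cells recruited in acute inflammation, held 0.142, 0.0668 and 0.0647% in Aachen, Bonn and Hamburg, a relative level of 3.27 ± 0.531. Monocytes, their companions from the blood, held 0.117, 0.0375 and 0.0558%, a relative level of 2.40 ± 0.249. Both lay above the mean of their dataset 3 times out of 3. The Aachen neutrophils numbered 25, with a median of 485 UMIs, so their Neat1 share rests on few molecules.

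Malat+_Macrophage and Malat+_T_cell were also high for Neat1, at 2.48 ± 1.66 and 2.13 ± 0.632. cDC2 followed at 1.63 ± 0.126 and Macrophage_1 at 1.57 ± 0.468, whereas Macrophage_2 and Macrophage_3, also resident macrophages, stood at 0.735 ± 0.0295 and 0.875 ± 0.0672. Lymphocytes closed the order. T_cell_3 held 0.0135, 0.00644 and 0.00961% Neat1, a relative level of 0.362 ± 0.0546, and was the only Ident to differ from its neighbour, T_cell_2 at 0.517, beyond the spread.

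The mitochondrial members were highest in Malat+_T_cell and in B cells, and not in all lymphocytes, since NK_cell_1 stood at 0.792 ± 0.0914. Malat+_T_cell held 1.78, 2.59 and 2.11% of its UMIs in the 8 transcripts in Aachen, Bonn and Hamburg, a relative level of 1.56 ± 0.516. B_cell_2 held 2.504, 2.59 and 1.44%, a relative level of 1.49 ± 0.106, and B_cell_1 stood at 1.35 ± 0.0679. B_cell_1 and B_cell_2 varied little between datasets, while Malat+_T_cell lay 1.15 times above the dataset's share in Aachen and 2.14 times in Hamburg.

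Malat+_Macrophage stood at 1.33 ± 0.469, with 1.54, 2.09 and 1.84%. Neutrophils were lowest at 0.653 ± 0.0794 (0.930, 1.14 and 0.732%), next to cDC1 at 0.746 ± 0.0702. The gap between those Idents was larger than either SD, as were those between B_cell_2 and B_cell_1 and between T_cell_4 and ILC2.

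**Figure D2:**
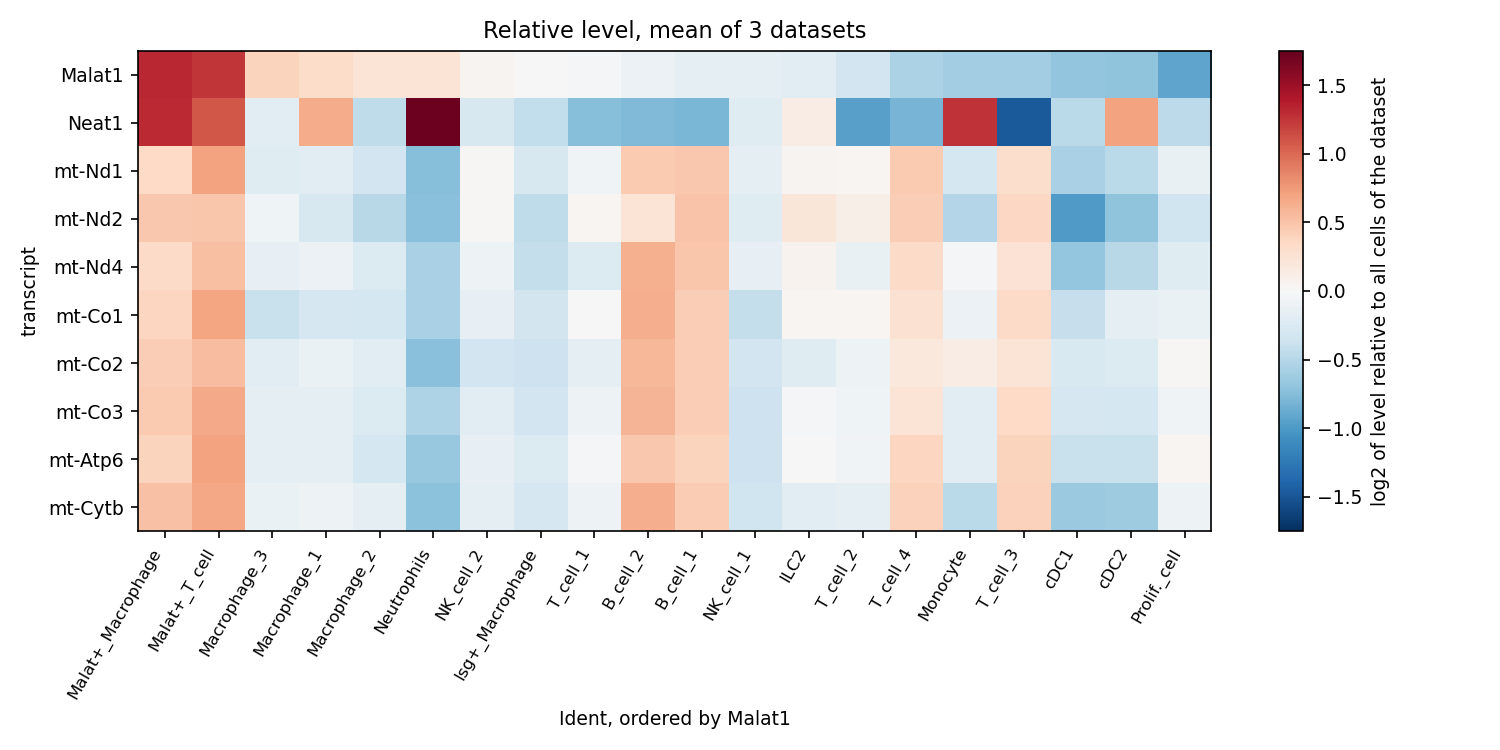
Log2 of the relative level (share in an Ident over the share in all cells of the dataset, mean of 3 datasets) for the 10 members in 20 Idents. The mitochondrial rows share 1 pattern from B cells (high) to neutrophils (low), with mt-Nd2 lowest in cDC1, and differ from the Malat1 and Neat1 rows.

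Each mitochondrial transcript taken alone spanned 2.30-fold (mt-Co3) to 2.81-fold (mt-Nd2) over the 20 Idents. Neutrophils were lowest for mt-Nd1, mt-Co1, mt-Co2, mt-Co3, mt-Atp6 and mt-Cytb. cDC1 were lowest for mt-Nd4 at 0.627 and for mt-Nd2 at 0.504 ± 0.0983, where neutrophils followed at 0.602 ± 0.0873. With 25 Aachen neutrophils of a median of 485 UMIs, their shares of single transcripts there rest on few molecules. The top place was held by Malat+_T_cell for mt-Nd1, mt-Co1, mt-Co3, mt-Atp6 and mt-Cytb, by B_cell_2 for mt-Nd4 and mt-Co2, and by B_cell_1 for mt-Nd2. For mt-Nd4 no neighbours differed beyond the spread.

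3 Idents had under 20 cells in at least 1 dataset. The largest of them, B_cell_3, had 1 cell in Aachen, 21 in Bonn and 225 in Hamburg. In Hamburg it held 3.95% Malat1, close to the 4.05% of Malat+_Macrophage, and with 3.21% the highest share of the mitochondrial members of any Hamburg Ident. In Bonn B_cell_3 held 1.51% Malat1 and 2.74% of the mitochondrial members.

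The Malat+ Idents were then set against the Idents of the same name. The macrophage markers (C1qa, C1qb, C1qc, Cd81, Adgre1, Csf1r, Aif1 and Ms4a7) summed to 151, 158 and 115 UMIs per 10000 in Malat+_Macrophage of Aachen, Bonn and Hamburg, against 210, 226 and 182.4 in Macrophage_1. T cell markers (Cd3d, Cd3e, Cd3g, Trac, Trbc2 and Cd28) summed to 18.3, 22.9 and 23.7 in Malat+_T_cell, against 30.7, 46.7 and 41.4 in T_cell_1. Both Idents therefore carried the markers of their name at a lower level. Lymphocyte markers outside their name were higher in all 3 datasets, for B cells by little in Hamburg. T cell markers summed to 5.35 (Aachen), 4.05 (Bonn) and 0.532 (Hamburg) in Malat+_Macrophage, against 0.565, 0.149 and 0.110 in Macrophage_1. B cell markers in Aachen, Bonn and Hamburg summed to 2.22, 23.1 and 2.90 in Malat+_Macrophage, against 0.910, 4.38 and 2.78 in Macrophage_1. In Malat+_T_cell they summed to 2.04, 16 and 2.49, against 0.903, 4.59 and 2.02 in T_cell_1. The part of these lymphocyte markers in the Malat1 levels was not tested. The 39 Aachen cells named Malat+_T_cell went against their label, since macrophage markers reached 97.8 per 10000 there, against 10.9 in Bonn and 4.01 in Hamburg. In T_cell_1 of Aachen, which should lack them, the same markers stood at 19.7, against 1.09 in Bonn and 0.709 in Hamburg (the part of free RNA in the droplets was not tested). Malat+_T_cell thus held more of these macrophage markers than T_cell_1 in all 3 datasets. The 536 Aachen cells named Malat+_Macrophage also held haemoglobin transcripts at 15.2 per 10000, which were at 0 in those of Bonn and Hamburg, and all of it lay in the OM library (0.217% of its UMIs).

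Malat1 in Malat+_Macrophage was 1.30, 1.61 and 3.24 times its share in the resident macrophages in Aachen, Bonn and Hamburg. The mitochondrial members were 1.20, 1.21 and 2.45 times as high, and Neat1 was 1.12, 1.53 and 4.88 times as high. All 9 ratios lay above 1, and Hamburg gave the largest of each. Messages for cytosolic ribosomal proteins differed in direction, with ratios of 1.15, 0.846 and 0.330.

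These cells were also shallower. Median UMIs per cell in Malat+_Macrophage were 0.696, 0.419 and 0.350 times those of the resident macrophages. The median number of Malat1 UMIs in a cell, in contrast, was 106, 41 and 46.9 in Malat+_Macrophage and 92, 45 and 39.7 in the resident macrophages. Per cell, Malat1 counts thus differed by ratios of 1.15, 0.911 and 1.18, whereas the totals that the shares are divided by differed much more in Bonn and Hamburg. Among cells of 1000 to 2000 UMIs only, the Malat1 share was 1.22, 1.98 and 2.91 times and the mitochondrial share 1.02, 1.49 and 1.84 times that of resident macrophages. The part of depth in these differences was not tested beyond this matching.

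Malat+_T_cell gave a like picture in Bonn and Hamburg. Its Malat1 share was 2.45 and 4.44 times that of the T cells, with 0.475 and 0.279 times their median UMIs and 1.35 and 1.22 times their Malat1 UMIs per cell. In Aachen, where the markers went against the label, the Malat1 share was 1.67 times that of the T cells at 1.14 times their depth. At matched depth the Malat1 ratios were 1.82, 1.85 and 2.36, and the mitochondrial ratios were 1.14, 1.34 and 1.88.

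B_cell_3, which carries no Malat+ name, showed the same in Hamburg. Its Malat1 share was 4.17 times that of B_cell_1 and its mitochondrial share 2.41 times, at 0.294 times the depth, with 28.7 against 21.99 Malat1 UMIs in the median cell. The ribosomal protein share of B_cell_3 in Hamburg was 0.158 times that of B_cell_1. In Bonn the Malat1 and mitochondrial ratios were 1.996 and 1.16. Proximal tubule markers were also higher in Hamburg, at 3.17 UMIs per 10000 in B_cell_3 against 0.103 in B_cell_1, at 3.04 in Malat+_T_cell against 0.0522 in T_cell_1 and at 2.27 in Malat+_Macrophage against 0.0553 in Macrophage_1. In Malat+_Macrophage of Aachen and Bonn they stood at 0.584 and 1.25, against 0.306 and 1.58 in Macrophage_1. Malat+_T_cell held more of them in both datasets, at 0.815 and 1.185 against 0.279 and 0.706 in T_cell_1. In B_cell_3 of Bonn they stood at 1.13, against 1.29 in B_cell_1. The part of the tubule markers in the Malat1 and mitochondrial levels was not tested.

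Cells with more than 3% mitochondrial UMIs were frequent in these Idents in Hamburg and Bonn. In Hamburg they made up 22.9% of Malat+_Macrophage, 30.3% of Malat+_T_cell and 76.4% of B_cell_3, against 0% of the 505 Macrophage_1 cells, 0.675% of T_cell_1 and 2.998% of B_cell_1. In Bonn the same limit was passed by 40.5, 56.9 and 76.2% of the 3 Idents, against 20.9, 8.33 and 37.8%. In Aachen it was passed by 13.3% of Malat+_Macrophage, 12.8% of Malat+_T_cell and not by the single B_cell_3 cell, against 4.43% of Macrophage_1, 8.96% of T_cell_1 and 18.5% of B_cell_1.

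Other nuclear and mitochondrial gene groups were read in the same cells. Nuclear-encoded subunits of the respiratory chain (75 genes) summed to 128, 101 and 40.4 UMIs per 10000 in Malat+_Macrophage, against 109, 119 and 84.3 in Macrophage_1, so that in Bonn and Hamburg they were lower while the mitochondrial members were higher. Speckle and splicing factors (27 genes), the proteins of the bodies where Malat1 sits, summed to 67.1, 69.8 and 83.5, against 58.5, 49.5 and 61.2, and were higher in all 3 datasets. In Malat+_T_cell the subunits stood at 152, 128 and 52.2 against 197, 217 and 173 in T_cell_1, and the speckle factors at 85.8, 98.9 and 129 against 80.3, 73.2 and 81.3.

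Within most Idents, Malat1 shares were lower in deeper cells. Spearman's rho between the Malat1 share and the UMIs of a cell had a median of −0.306 over 16 Aachen Idents of at least 50 cells, −0.210 over 18 Bonn Idents and −0.202 over 21 Hamburg Idents, and was negative in 15, 16 and 16 of them. For the mitochondrial share the medians were 0.0451, −0.0103 and −0.0252, but single Idents ranged from −0.759 (Hamburg cDC2) to 0.544 (Bonn neutrophils). The cells of an Ident share their libraries, and the UMI total is the denominator of both shares.

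For mt-Co2, mt-Nd2, mt-Co3 and mt-Nd1, the make-up of the mitochondrial RNA differed so far between datasets that the range over Aachen Idents lay apart from those of Bonn and Hamburg. The parts are compared across datasets here, not between genes. mt-Co2 took 3.56% of the UMIs of the 8 members in Aachen, 18.4% in Bonn and 14.2% in Hamburg. Over the Aachen Idents its part ranged from 2.29 to 5.08%, over those of Bonn from 15.4 to 21.3% and over the Hamburg ones from 12.2 to 16.4%. No Aachen Ident overlapped with one of Bonn or Hamburg.

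mt-Nd2 took 1.82, 4.80 and 4.83% in Aachen, Bonn and Hamburg, and its Aachen Idents, at 0.938 to 2.47%, lay below all others as well. mt-Co3 took the opposite course with 27.8, 16.6 and 15.6%, and mt-Nd1 with 8.91, 4.24 and 5.80%. For mt-Co3 the lowest Aachen Ident, T_cell_4 at 25.2%, stood above the highest of Bonn (18.1%) and of Hamburg (17.4%). mt-Co1 (28.2, 26.7 and 28.04%), mt-Cytb (11.9, 11.9 and 10.4%) and mt-Atp6 (13.1, 14.0 and 17.4%) kept closer parts. For mt-Co1 the Idents of Aachen, at 26.0 to 33.4%, spread wider than the datasets did.

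**Figure D3:**
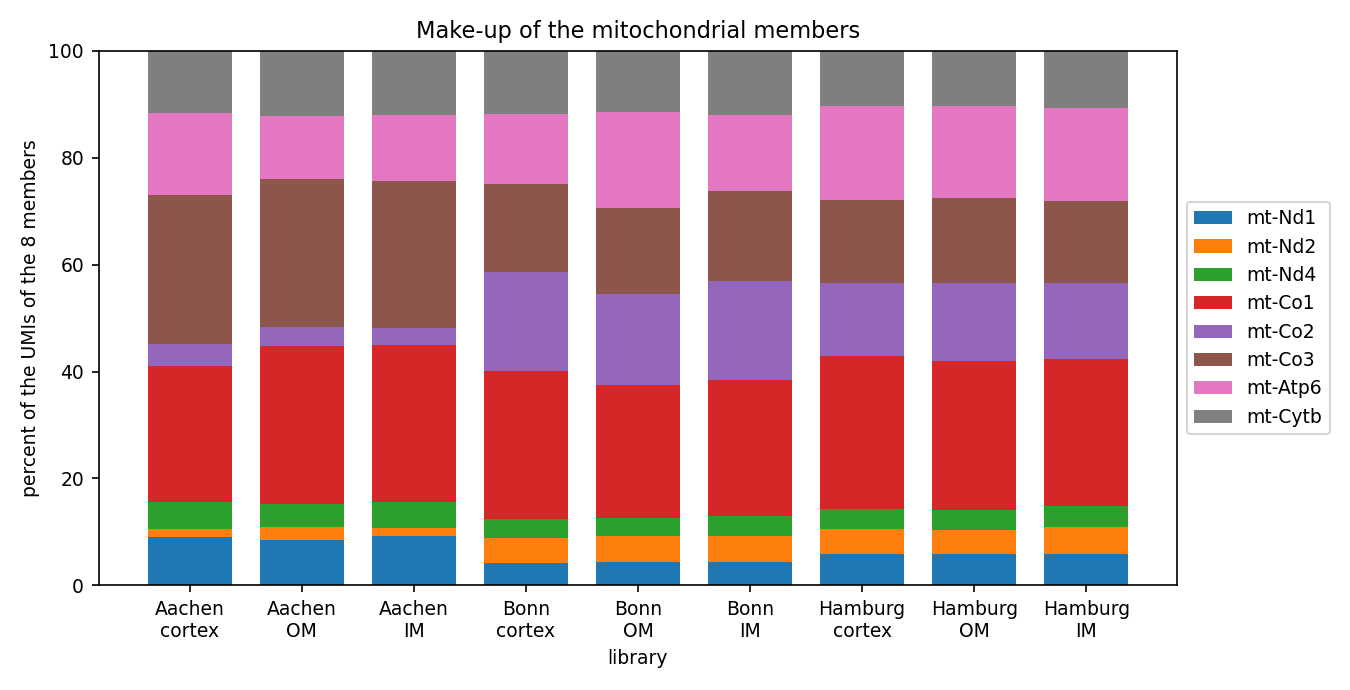
Percent of the UMIs of the 8 mitochondrial members taken by each of them in the 9 libraries, as stacked bars that sum to 100. The Aachen bars differ from the others by their narrow mt-Co2 and mt-Nd2 segments and wide mt-Co3 and mt-Nd1 segments. Compartments of 1 dataset differ as well, with mt-Atp6 at 13.1 to 18.0% in Bonn and 11.8 to 15.4% in Aachen.

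Neighbouring genes that overlap on the genome also split their counts differently. mt-Nd4l and mt-Nd4 share 7 bases, and mt-Nd4l took 4.17 to 7.01% of their summed UMIs in the Aachen libraries, 66.6 to 67.1% in Bonn and 63.8 to 64.2% in Hamburg. The transcripts are 297 bases (mt-Nd4l) and 1378 bases (mt-Nd4) long. Reads that fall on a shared stretch cannot be assigned to 1 gene, and how the counter treated them is not given in the sources used here. The part of such reads in the split was not tested.

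mt-Atp8 and mt-Atp6, which encode parts of ATP synthase on 1 message, share 43 bases at chrM:7927-7969 on the plus strand. The stretch is printed because the split between these genes set 1 library apart.
mt-Atp8 and mt-Atp6: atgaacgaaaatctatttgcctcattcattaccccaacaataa

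In Bonn, mt-Atp8 made up 35.4% of the summed UMIs of both genes in cortex and 31.6% in IM, but 15.4% in OM. This held in each of the 10 Idents with 3 libraries, where the OM value lay at 13.5 to 18.1% and the others at 29.4 to 37.3%, without overlap. mt-Atp6 showed the reverse. It took 16.9 to 20.5% of the 8 members in OM of these Idents, against 12.4 to 15.9% in cortex and IM.

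The sum of both genes moved less, with 36.0, 40.7 and 39.8 UMIs per 10000 in cortex, OM and IM of Bonn. In Hamburg mt-Atp8 made up 5.75, 5.51 and 5.56% of the sum, and was lowest in OM in 7 of 18 Idents. In Aachen the values were 2.15, 5.02 and 2.99%, with OM lowest in 1 of 14. The low mt-Atp8 part of OM was therefore found in the Bonn library and not in the same compartment of the other datasets.

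**Figure D4:**
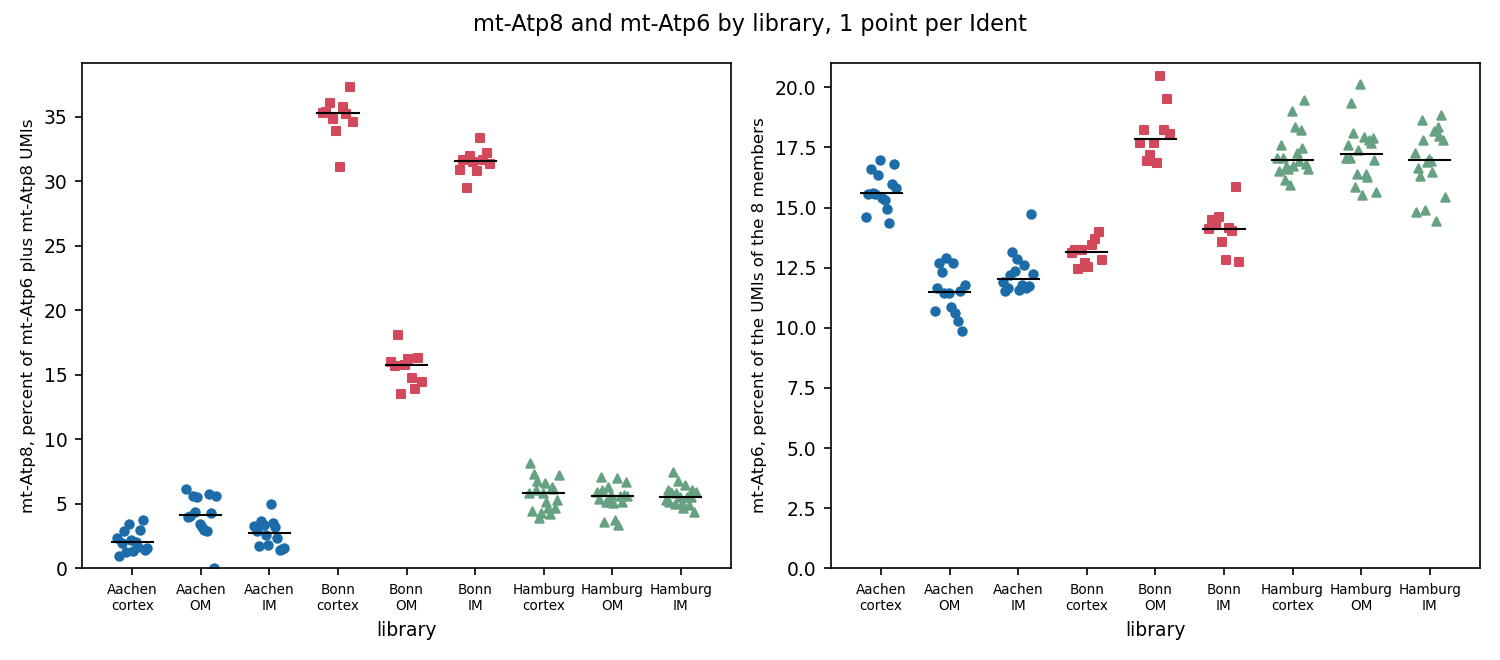
Percent of the summed mt-Atp6 and mt-Atp8 UMIs taken by mt-Atp8, and percent of the 8 members taken by mt-Atp6, with 1 point per Ident in each library and a black line at the median. In Bonn OM every Ident lies apart from cortex and IM of the same dataset (13.5 to 18.1% against 29.4 to 37.3% for mt-Atp8), while Hamburg shows no such step.

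Whether the members differ between compartments was asked within cell classes, on counts summed per library. Resident macrophages (Macrophage_1, Macrophage_2, Macrophage_3 and Isg+_Macrophage), Malat+ macrophages, T cells, B cells and cDC2 could be tested, with medulla taken as the mean of OM and IM. Malat+_T_cell could not, since Aachen cortex held 3 of these cells and only Hamburg had 20 or more in all 3 compartments. Malat1 and Neat1 belong to a set of compartment genes, and mt-Nd2 to a set of variable genes, that the study chose on these samples, so their values here are not independent of that choice.

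In resident macrophages, Malat1 shares in cortex, OM and IM were 8.25, 10.7 and 8.79% in Aachen. They were 0.987, 1.22 and 0.995% in Bonn and 1.26, 1.24 and 1.25% in Hamburg. OM was highest in Aachen and Bonn, while the Hamburg compartments hardly differed. The log2 fold change of medulla against cortex was 0.13 with a 95% interval from −0.08 to 0.34 (edgeR, adjusted p = 0.751).

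Neat1 in these cells stood at 0.0611, 0.0529 and 0.0453% in cortex, OM and IM of Aachen and at 0.0123, 0.0177 and 0.0255% in Bonn. In Hamburg it stood at 0.0210, 0.0215 and 0.0199%. The Aachen and Bonn datasets thus ran in opposite directions, and the log2 fold change of 0.15 had an interval from −0.27 to 0.57. It turned to −0.19 without the Bonn dataset. The make-up of the class also changed between Bonn compartments. Macrophage_1 gave 24 of 539 cells in cortex, 30 of 168 in OM and 285 of 642 in IM. Macrophage_2 gave 449, 54 and 67. In Bonn, Macrophage_1 held 0.0322% Neat1 and 1.965% of the mitochondrial members, against 0.0123 and 1.49% in Macrophage_2. The part of Ident make-up in the Bonn values was not tested beyond fits of single Idents.

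mt-Nd2 was the member with the largest value in resident macrophages. Its shares were 0.0201, 0.0271 and 0.0170% in Aachen, 0.0675, 0.0810 and 0.0868% in Bonn, with 0.0273, 0.0353 and 0.0350% for Hamburg. The mean of the medullary libraries was above cortex in all 3 datasets, by 1.10 to 1.29 times, although Aachen IM lay below Aachen cortex. The log2 fold change was 0.29 with an interval from −0.03 to 0.61.

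The 8 members together ran in opposite directions, with 1.63, 1.13 and 1.33% in cortex, OM and IM of Aachen but 1.49, 1.70 and 1.91% in Bonn and 0.699, 0.775 and 0.753% in Hamburg. Cortex was highest in Aachen and lowest in Bonn and Hamburg. For mt-Nd2 and for the 8 members, the Bonn values carry the same change of Ident make-up. Its part was not tested beyond fits of single Idents. Median UMIs per resident macrophage moved as well, being 1456, 783 and 1015 in cortex, OM and IM of Aachen. Depth as a part of the Aachen values was not tested beyond the thinning of cells described for the processing.

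None of the 10 members passed the test in resident macrophages by edgeR's quasi-likelihood test with Benjamini-Hochberg adjustment, where 1.24% of 8687 genes did (lowest adjusted p of a member 0.554). No member had an unadjusted p under 0.05 in this class. Kap, an abundant proximal tubule transcript that immune cells should lack, was called in the same comparison with 3.01 (SE 0.53, edgeR adjusted p = 0.0174). Proximal tubule markers took 0.127% of all UMIs in Bonn IM and 0.0322% in Bonn OM. They took 0.00650% in Bonn cortex and at most 0.00917% in any Aachen or Hamburg library. The part of such free RNA in the members' values was not tested beyond a fit without cells holding tubule marker UMIs. That fit left 233 of 642 resident macrophages in Bonn IM and called no member. With all cells, the members' log2 fold changes lay between −0.12 (mt-Co2) and 0.29 (mt-Nd2), and their intervals between −0.44 and 0.61.

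The other classes gave 0 called members as well. The share of all genes called was 0.0587% in Malat+ macrophages, 0.0335% in T cells, 0.0898% in B cells and 0.304% in cDC2. For OM against IM it was 0% in resident macrophages, Malat+ macrophages and T cells, 0.0673% in B cells and 0.162% in cDC2, again with 0 members called. Over 5 classes and both contrasts, which makes 100 values, 3 had an unadjusted p under 0.05 by edgeR and 1 by DESeq2, which also called 0 members.

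The narrowest intervals were those of B cells, with half-widths of 0.14 to 0.31 on the log2 scale for medulla against cortex. In Malat+ macrophages they were 0.52 to 0.64, so differences of that size were not detectable there. An interaction test found 0 of 10004 genes whose medulla effect differed between resident macrophages and T cells (416 at an unadjusted p under 0.05, 0 of them members, and 83 of 18431 called without the filter on low counts, again 0 of them members), and the members' differences lay between −0.07 and 0.19.

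**Figure D5:**
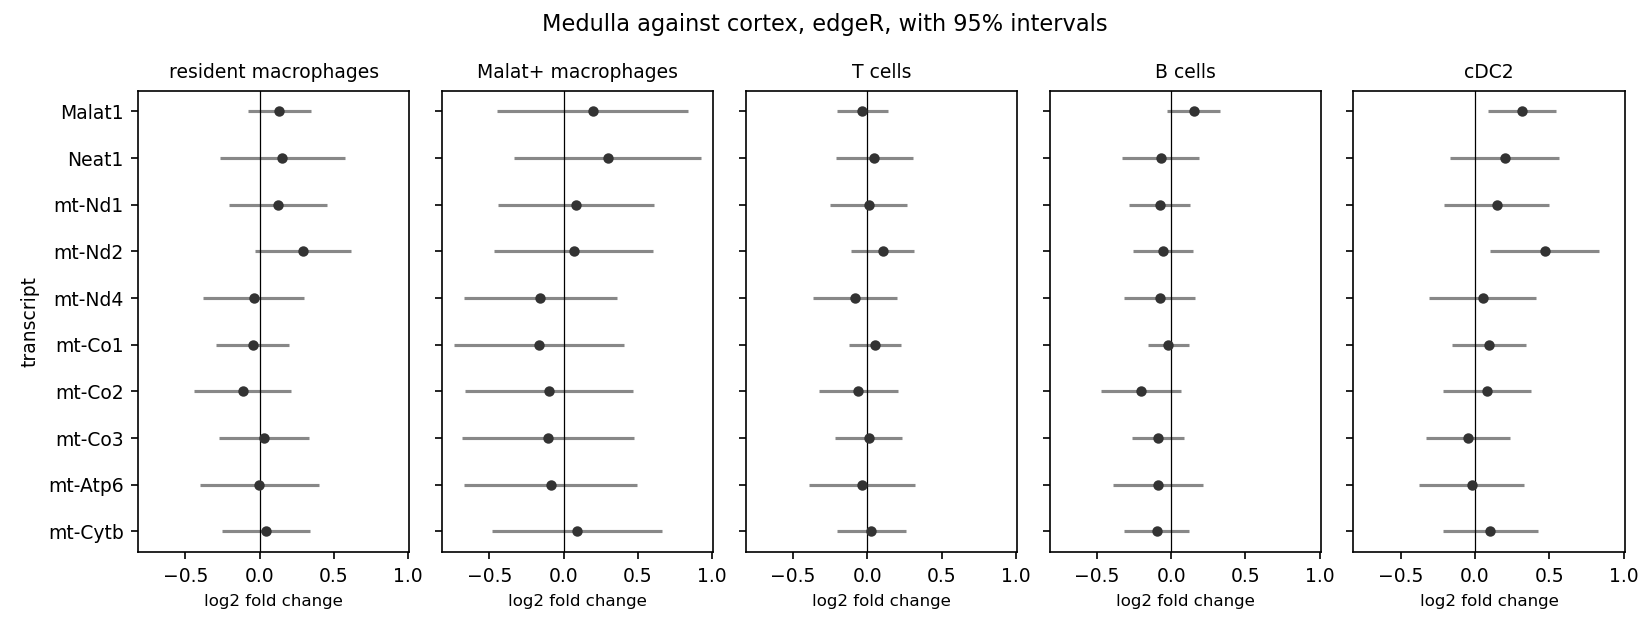
Log2 fold change of medulla (mean of OM and IM) against cortex for the 10 members in 5 cell classes, by edgeR with the dataset as block, with bars for 95% intervals and a line at 0. Intervals span 0 for all members but Malat1 (0.32) and mt-Nd2 (0.47) in cDC2, neither of which passed the adjusted threshold.

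cDC2, dendritic cells that present antigen to helper T cells, held the lowest unadjusted p-values for medulla against cortex. Their Malat1 shares in cortex, OM and IM were 2.64, 3.98 and 4.27% in Aachen, 0.492, 0.499 and 0.541% in Bonn, with 0.750, 0.763 and 0.787% for Hamburg. Cortex was lowest in each dataset, by little in Bonn and Hamburg. Cortex was also the deepest, with median UMIs per cDC2 of 3609, 1520 and 1879 in Aachen, 9123, 7634 and 7538 in Bonn, and 6812, 3486 and 5175 for the Hamburg cells. The log2 fold change was 0.32 (SE 0.11, unadjusted p = 0.00960, adjusted p = 0.593 by edgeR). It was 0.26 (SE 0.18) in cells thinned to 500 UMIs, 0.09 without the Aachen cortex library of 22 cDC2, the smallest of the 9, and 0.00 (−0.00108) without cells above 3% mitochondrial UMIs. That filter was chosen after seeing the data, and it left 19 cDC2 in Aachen cortex, so that this library dropped out as well and the parts of both cannot be told apart.

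mt-Nd2 in cDC2 stood at 0.00686, 0.0143 and 0.0151% in Aachen, 0.0504, 0.0593 and 0.0582% in Bonn, with 0.0260, 0.0413 and 0.0339% for Hamburg. Cortex was again lowest in all 3 datasets, and the log2 fold change was 0.47 (SE 0.18, unadjusted p = 0.0152, adjusted p = 0.715 by edgeR). Without the Aachen cortex library it was 0.39, and in cells thinned to 500 UMIs 0.9956 (SE 0.32). The Aachen cortex share rests on few molecules, being 0.00686% of 72941 UMIs. Thinning left 21 cells of 500 UMIs in that library and so fewer molecules still, and the larger thinned value is no firmer for it. The third value was that of Malat1 in B cells, with a log2 fold change of 0.22 for OM against IM (unadjusted p = 0.0369, adjusted p = 0.9999 by edgeR).

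The genes around the members were tested in the same fits. In resident macrophages, 0 were called of 5 other mitochondrially encoded genes tested (median log2 fold change 0.29 for medulla against cortex), 75 nuclear subunits of the respiratory chain (−0.02), 21 genes of mitochondrial RNA synthesis and handling (0.05), 16 paraspeckle proteins (−0.08) and 27 speckle and splicing factors (−0.01), beside a median of 0.01 over all genes tested. mt-Nd4l, a complex I subunit, stood at 0.29 (SE 0.14) and mt-Nd5 at −0.15 (SE 0.16). Cox4i1, a nuclear-encoded complex IV subunit, stood at −0.01, and Hnrnpk, a paraspeckle protein, at −0.11.

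2 nuclear long RNAs beside the members passed the test, both in cDC2 alone among the 5 classes for medulla against cortex. Gm42418, which overlaps a repeat of ribosomal RNA genes, was higher in medulla by 0.61 on the log2 scale (SE 0.12, edgeR adjusted p = 0.0184), and AY036118 by 0.91 (SE 0.18, adjusted p = 0.0227). In the other classes the Gm42418 values ran from −0.44 in Malat+ macrophages to 0.31 in T cells, and whether classes differ was not tested for cDC2. Gm42418 also separated the datasets, with 0.00889% of all UMIs in Aachen, 1.44% in Bonn and 2.98% in Hamburg.

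The genes most like each member were sought over 65 sums of an Ident in a dataset, among 2961 genes, by Pearson correlation of log2 CPM centred within the dataset. Sums of 1 dataset share their libraries and depth, and the values are descriptions. Closest to Malat1 were Jmjd1c (0.771), Taok1 (0.738), Ash1l (0.735), Son (0.706) and Wnk1 (0.706). Son encodes a core protein of the nuclear speckle, and Jmjd1c and Ash1l encode chromatin enzymes. For these 5 genes the values ran from 0.509 (Wnk1) to 0.801 (Son) within Aachen and from 0.570 (Son) to 0.763 (Taok1) within Bonn. Within Hamburg they ran from 0.806 (Son) to 0.899 (Jmjd1c). Malat1 and Neat1 correlated at 0.512 over all sums, with 0.235 within Aachen, 0.454 within Bonn and 0.711 within Hamburg.

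Closest to Neat1 were Spag9 (0.757), Picalm (0.750), Zfand5 (0.744), Nfkbiz (0.729) and Tmcc1 (0.705), of which Nfkbiz encodes an inducible regulator of NF-kB. mt-Co1 went with the other mitochondrial members at 0.770 (mt-Nd2) to 0.963 (mt-Co3). Outside the members it was closest to mt-Atp8 (0.790), Matr3 (0.768), mt-Nd5 (0.736), Rbbp6 (0.732) and Huwe1 (0.717). Its correlation with Malat1 was 0.400 over all sums but −0.138 within Aachen, 0.262 within Bonn and 0.683 within Hamburg, and with Neat1 it was 0.0163, with −0.401 within Aachen, −0.261 within Bonn and 0.415 within Hamburg.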

How the data were processed

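The authors prepared CD45+ cells with a viability dye and sorting, aligned the reads with Cell Ranger to mm10 and filtered and clustered the cells with Seurat. The deposited table holds expected counts of UMIs per cell and gene, not normalized, with compartment, Ident and facility. Values are whole in Aachen and Bonn, whereas 0.118% of the nonzero Hamburg values equal a whole number exactly, and they were rounded after summing. Total UMIs were 8077649 in Aachen, 26751209 in Bonn and 24312181 in Hamburg, and 744 to 3505 in the median cell of a library. Doublet removal is not given in the sources used here and none was run. Columns of samples outside the labels numbered 0.

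Shares are summed UMIs of a gene over summed UMIs of all genes. Libraries with under 20 cells of a class were left out. Sums per library and class were tested with edgeR 4.0.16 in R 4.3.3 (filterByExpr, TMM, glmQLFit, glmQLFTest, dataset as block, Benjamini-Hochberg, threshold 0.05), with DESeq2 1.42.0 as alternative, after a test on simulated data. Libraries of 1 dataset deviated together (r of 0.834 to 0.935 in 9 pairs within and −0.871 to 0.535 in 27 pairs between datasets, 6933 genes). Other alternatives were RLE factors, scaling to the library total, no gene filter, estimated counts rounded up, cells thinned to 500 UMIs, filters on mitochondrial share and left-out libraries. Named genes are all members, of each related list up to 4 called genes or else the 2 most abundant, and the 5 genes most like Malat1, Neat1 and mt-Co1. Only some of those from related lists are printed. Python 3.11.15 with numpy 2.4.6, scipy 1.17.1 and pandas 2.3.3 gave the descriptions. The members, lists and tests were chosen with earlier results of these data known. Intervals of shares cover counting error only.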

Additional observations from a re-analysis of the deposited data

How the results depend on the processing

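No alternative moved a member past the adjusted threshold. With RLE factors, scaling to the library total, no gene filter, DESeq2, counts rounded up, thinned cells, filters on mitochondrial share or tubule markers, or a library or dataset left out, 0 members were called in each class and contrast (22 to 24 alternatives each, lowest adjusted p 0.146). Of 100 log2 fold changes of members, 17 kept their sign throughout, and 83 turned under at least 1 alternative, the largest of them being 0.32. Without the dataset as a replicate block, 0 members were called, and 0 genes in place of 108 in resident macrophages. There Neat1 turned to −0.10, and Malat1 in T cells to 0.050. No block by replicate number was possible, since each compartment carries only number 1.

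Among the medulla values named in the text, leaving out 1 dataset or library gave −0.10 to 0.058 for Malat1 in T cells, −0.19 to 0.40 for Neat1 and −0.15 to 0.039 for mt-Co1 in resident macrophages, and −0.085 to 0.14 in Malat+ macrophages and −0.12 to 0.014 in B cells for mt-Nd2. mt-Nd2 in Malat+ macrophages turned to −0.044 with scaling to the library total, and in T cells to −0.000162 in thinned cells. Chosen after seeing the data, a limit of 3% mitochondrial UMIs (2464 cells removed), which also dropped the Aachen cortex library of cDC2, turned Malat1 in cDC2 to −0.00108, Macrophage_2 cells alone turned Neat1 to −0.053, and the single libraries were left out. The causes were not tested. A limit of 10% removed 0 cells. Of the levels, 18 were recomputed (Malat1, Neat1 and the mitochondrial members in 6 Idents), and all 108 alternative values lay within 1 SD. Shallow Aachen cells limit Neat1, and 20 to 62 cells per Bonn library limit Malat+ macrophages.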

Other observations

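Plasmacytoid dendritic cells (pDC), which make type I interferon, and the cells the authors left as Undefined had fewer than 20 cells in at least 1 dataset. pDC held 5.49, 0.684 and 0.882% Malat1 in Aachen, Bonn and Hamburg and 1.80, 2.41 and 1.23% of the 8 mitochondrial members, a relative level of 1.24 ± 0.0751 (SD, n = 3 datasets) for the latter. Undefined cells held 7.89, 0.783 and 0.312% Malat1 and 2.03, 2.20 and 0.436% of the mitochondrial members. Against all cells of the dataset, Undefined stood at 0.987, 0.949 and 0.299 for Malat1 and at 1.31, 1.19 and 0.443 for the mitochondrial members, lowest in Hamburg.

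The 8 Hamburg cells above 5% mitochondrial UMIs were 3 of B_cell_3, 2 monocytes and 1 each of Malat+_T_cell, NK_cell_2 and Undefined.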
